A study of Mus musculus with 16 samples.

Results

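The hnRNP genes encode heterogeneous nuclear ribonucleoproteins, abundant nuclear proteins that coat RNA as it is transcribed. The data described here are the sites in 10 of these genes at which the transcriptional coactivator PGC-1α was crosslinked to RNA in mouse liver cells. The 10 genes were Hnrnpf, Hnrnpk, Hnrnpa3, Hnrnpa2b1, Hnrnpc, Hnrnpdl, Hnrnph1, Hnrnph3, Hnrnpu and Ptbp1, of 13154 genes with a cluster in any library. A cluster is a stretch of RNA with piled-up reads, and it was assigned to a gene when its midpoint lay inside the gene on the same strand (mm10, GENCODE M21).

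Primary hepatocytes from C57BL/6J livers were either starved overnight and then treated for 3 h with glucagon at 200 nM, a hormone the pancreas releases in fasting, or left as untreated controls. The protocol text does not say whether the controls were starved as well. RNA crosslinked to PGC-1α by ultraviolet light at 254 nm was immunoprecipitated and sequenced by seCLIP, the single-end variant of eCLIP, which scores each site against a size-matched input. There were 2 immunoprecipitated libraries each of glucagon upper band, glucagon lower band, control upper band and control lower band, 8 in all, beside 8 inputs whose own values were not analysed here. The labels do not say what the bands hold, nor whether the replicates were separate animals or cultures, so every p-value here reflects the spread among libraries alone, and that spread may be technical.

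hnRNP proteins recognise short sequence words in nascent RNA and so steer splicing, polyadenylation, export and decay. Several of them, PTBP1 among them, also bind their own transcripts and limit their own amount through alternative splicing. PGC-1α switches on the fasting programme of the liver, including gluconeogenesis, and carries an arginine-serine region and an RNA recognition motif like those of splicing factors.

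The libraries held 97629 and 207718 clusters (glucagon upper band), 26279 and 188011 (glucagon lower band), 240002 and 260814 (control upper band) and 132622 and 178308 (control lower band). Read depth is unknown, because the files give no read counts. Glucagon lower band replicate 1 had the fewest clusters, and its low counts of peaks are read with that in mind. Clusters with a log2 fold over input of at least 3 and a −log10 p of at least 3 are called enriched peaks, and the authors' 4 lists of reproducible peaks, 1 per group, supply the listed peaks. All 8 hepatocyte markers had clusters in these libraries (351 to 673 summed per library). Of markers of other liver cells, 1 of 5 for Kupffer cells had clusters (3 to 8 per library), 1 of 5 for stellate cells (0 to 4), 1 of 5 for endothelial cells (0 to 1) and 2 of 5 for cholangiocytes (0 to 12), with none in Clec4f, Lrat, Pecam1 or Krt19.

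PGC-1α peaks were dense in part of the family. Over the 8 libraries the 10 genes had 1645 clusters, of which 287 (17.4%) were enriched, against 2.70% of all clusters. The share per library was 14.8% and 20.5% with glucagon in the upper band and 14.8% and 12.6% in the lower band, against 17.7% and 20.3% in control upper band and 18.1% and 18.5% in control lower band. Each of these 8 values was above the highest share over all clusters of a library, 3.73%. The 10 genes were chosen with earlier results of these data in view, so these contrasts are a description and not a test. The peaks were uneven within the family: Hnrnpf held 105 of the 287, Hnrnpk 57 and Hnrnpa3 46, while Hnrnph1 held 0. Close to the threshold, the lowest fold of an enriched peak in these genes was 3.00, and 270 clusters had a log2 fold between 2 and 3.

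**Figure D1:**
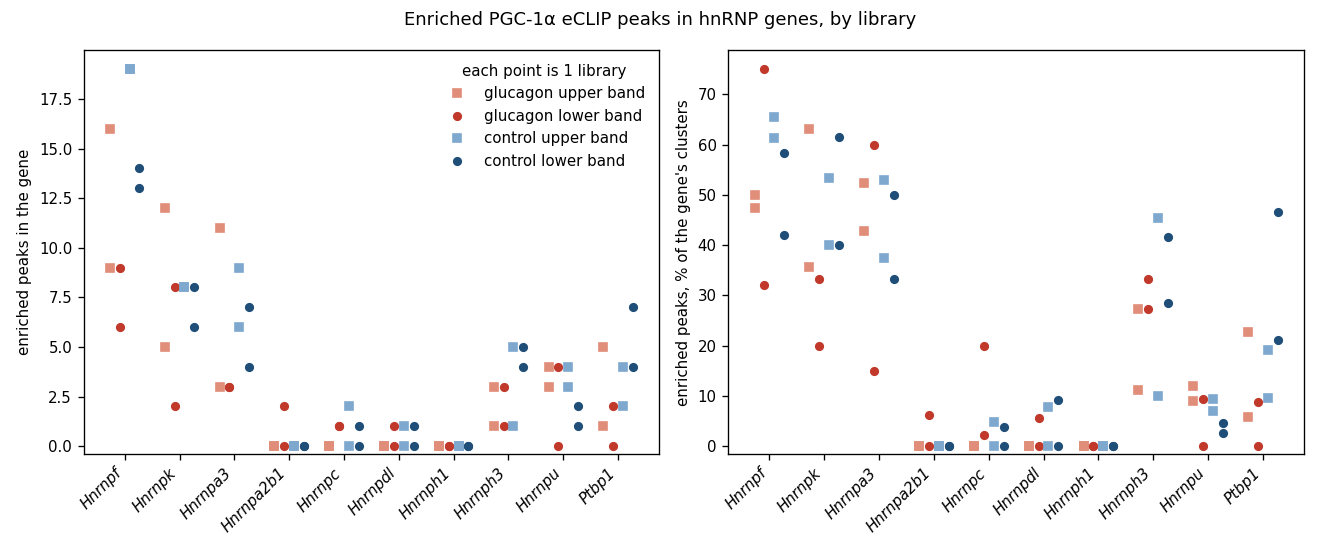
Enriched PGC-1α peaks in each hnRNP gene (left axis, number of peaks; right axis, percent of the gene's clusters), with 1 point per library and glucagon groups to the left of control groups within each gene. Hnrnpf had 6 to 16 peaks with glucagon and 13 to 19 in control, not scaled to library size, and Hnrnph1 had 0 in all 8 libraries.

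Of the 10 genes, 8 had a listed peak in at least 1 of the 4 lists, where 9.38% of all genes with a cluster did. Genes with more clusters are listed more often, and among the 3125 genes with as many clusters as these 10, 17.8% had a listed peak. Because of how the 10 genes were chosen, these shares too are a description. With glucagon, 6 of the 10 were listed in the upper band and 4 in the lower band, against 8 in control upper band and 6 in control lower band. The shares of all genes in those lists were 5.38%, 0.867%, 7.30% and 4.88%. Hnrnpf, Hnrnpk, Hnrnpa3 and Hnrnph3 were in all 4 lists, as were 90 genes in total. Together the 10 genes held 113 listed peaks, and 92 of them were enriched in both libraries of their group. When only such peaks were counted, 6 of the 10 genes had one.

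Scaled to gene length, the enriched peaks per kb and library averaged 0.584 ± 0.238 in Hnrnpk, 0.567 ± 0.301 in Hnrnpa3 and 0.519 ± 0.191 in Hnrnpf (SD, n = 8 libraries). Next came Ptbp1 with 0.302 ± 0.222 per kb, Hnrnph3 with 0.301 ± 0.181 and Hnrnpu with 0.157 ± 0.0902. The first 3 genes differed from each other by less than their spread, and so did Ptbp1 and Hnrnph3. Hnrnpdl, Hnrnpa2b1 and Hnrnpc lay between 0.0616 and 0.0204 peaks per kb, and Hnrnph1 was at 0.

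Hnrnpf encodes a splicing factor that binds runs of G, and among the 10 genes it had most peaks. The gene lies at chr6:117900324-117925622 on the plus strand. It had 9 and 16 enriched peaks with glucagon in the upper band and 6 and 9 in the lower band, against 19 and 19 in control upper band and 14 and 13 in control lower band. The glucagon libraries ranged from 6 to 16 and the controls from 13 to 19, so the groups overlapped. Raw counts, here and for the genes below, depend on library size. Per 1000 enriched peaks of the library, the Hnrnpf mean was 3.54 ± 1.78 with glucagon and 3.11 ± 0.67 in control (SD, n = 4 libraries each). The lists held 13 Hnrnpf peaks with glucagon in the upper band and 6 in the lower band, against 18 in control upper band and 12 in control lower band. The lists differ in size, with 2167, 413, 3692 and 2206 peaks in that order. By listed peaks over the 4 lists Hnrnpf ranked 20th among all genes.

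Those 49 listed peaks lay in the first intron of the reference transcript, which is 16963 nt long, and formed 2 stretches. The first, chr6:117906916-117908569, held 40 listed peaks, and 80 of its 91 clusters over the 8 libraries were enriched. The midpoints of those peaks lay 120 to 1673 nt downstream of the nearest start annotated for any Hnrnpf transcript, and 69.3% of the bases covered by a listed peak were covered in 2 or more lists. The second, chr6:117916654-117917464, held 9 listed peaks, none of them from the glucagon lower band list, and 24 of its 42 clusters were enriched. That list is the shortest, with 413 peaks, and its 2 libraries did have enriched peaks in this stretch (1 and 2). Of the 69 clusters elsewhere in the gene, 1 was enriched. Genes read from the opposite strand are annotated over both stretches, and no other gene is annotated there on the strand of Hnrnpf.

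Sequence was at hand for 2 places in these stretches, from the RefSeq promoter table (mm10), because listed peaks lie in the window before an internal RefSeq start. They are shown since the first holds 41 of the 331 bases of the upstream stretch that all 4 lists cover, in capitals, and the second shows a peak of the downstream stretch, with each TCTT in capitals. The second peak was in the control upper band list alone, with a log2 fold of 3.67, and was not enriched in both libraries of that group. Both are written 5′ to 3′ on the RNA strand, with T for U. The first is chr6:117907616-117907782 and the second chr6:117917177-117917216, both on the plus strand.
Hnrnpf window 1: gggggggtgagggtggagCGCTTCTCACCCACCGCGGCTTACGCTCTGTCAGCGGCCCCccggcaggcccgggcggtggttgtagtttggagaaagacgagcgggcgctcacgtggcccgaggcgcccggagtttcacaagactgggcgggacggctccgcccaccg
Hnrnpf window 2: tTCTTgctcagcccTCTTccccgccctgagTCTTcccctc
The first window, 22 to 188 nt before the internal start, was 71.9% G and C, where the median of the same window over 32851 promoters was 52.7%. It held the word GGG 10 times, counting overlaps, and 87.5% of promoters hold that word in the same window. CCCC occurred 3 times, against a share of 51.1% of promoters with the word. The word TTTTT did not occur, nor did the word TAGG, the pyrimidine word TCTT or the purine word GAAGAA. The second window, of 40 nt, held TCTT 3 times, a word found in 15.2% of promoters there, and CCCC 2 times, found in 17.7%. The words were searched on the RNA strand alone.

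The listed Hnrnpf peak of highest fold, chr6:117907399-117907433, was in the glucagon upper band list with a log2 fold of 5.86, the authors' value. The clusters over it had log2 folds of 4.67 and 5.23 with glucagon in the upper band and 4.71 in replicate 2 of the lower band, against 5.39 and 6.53 in control upper band and 4.63 and 5.80 in control lower band. Glucagon lower band replicate 1 had no cluster there, and the other 7 libraries were enriched. The glucagon values lay within the range of the controls.

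**Figure D2:**
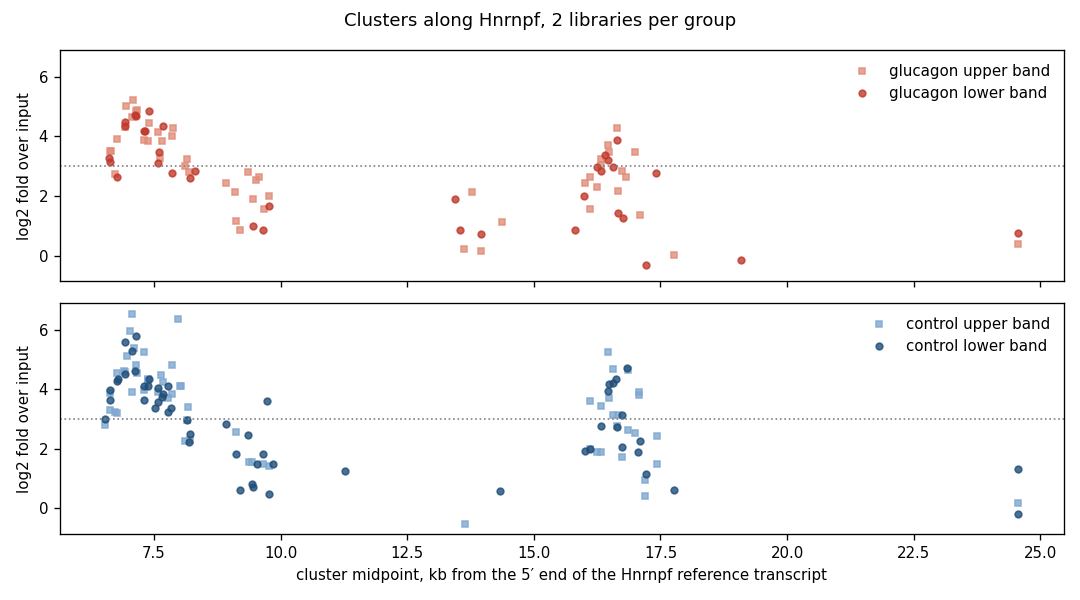
Log2 fold over input of every cluster in Hnrnpf against its distance from the start of the reference transcript in kb, glucagon libraries above and control libraries below; the dotted line is the log2 fold of 3. Both treatments had clusters above the line at the same 2 stretches, and 1 of the 69 clusters elsewhere in the gene was enriched.

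Hnrnph3 and Hnrnph1 encode relatives of hnRNP F that share its type of RNA-binding domain. Hnrnph3 (chr10:63014664-63024217, minus strand) had 1 and 3 enriched peaks with glucagon in the upper band and 1 and 3 in the lower band, against 1 and 5 in control upper band and 5 and 4 in control lower band. The glucagon libraries ranged from 1 to 3 and the controls from 1 to 5. Its 9 listed peaks lay 231 to 868 nt from the start of the reference transcript, in the first intron. The one of highest fold, chr10:63023207-63023279 in the control lower band list, had log2 folds of 2.49 and 3.55 with glucagon in the upper band and 4.05 and 3.14 in the lower band, against 3.59 and 3.63 in control upper band and 3.73 and 4.11 in control lower band. It was enriched in 7 of the 8 libraries, the exception being glucagon upper band replicate 1. Hnrnph1 (chr11:50376990-50386528, plus strand) had 128 clusters, none enriched and none listed. Its first intron is 166 nt long and held no cluster.

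Hnrnpa3 and Hnrnpa2b1 encode hnRNPs of the A/B type, which take part in splicing and in the transport of RNA. Hnrnpa3 (chr2:75659261-75669407, plus strand) had 3 and 11 enriched peaks with glucagon in the upper band and 3 and 3 in the lower band, against 6 and 9 in control upper band and 4 and 7 in control lower band. By raw count a single glucagon library, upper band replicate 2, was above every control, and the other 3 were below them all. This order depends on library size. Per 1000 enriched peaks of the library, Hnrnpa3 had 0.91 and 1.45 with glucagon in the upper band and 3.06 and 1.07 in the lower band. The controls had 1.22 and 1.38 in the upper band and 0.97 and 1.23 in the lower band. Its 19 listed peaks lay 217 to 1149 nt from the start of the reference transcript. The leading one, chr2:75659698-75659795 in the control lower band list, had log2 folds of 2.47 and 3.54 with glucagon in the upper band and 4.20 and 3.03 in the lower band, against 4.37 and 3.43 in control upper band and 4.73 and 4.30 in control lower band. Hnrnpa2b1 (chr6:51460932-51469894, minus strand) had 207 clusters but 2 enriched peaks, both in glucagon lower band replicate 2, and no listed peak. Its clusters were mostly exonic, with 127 of 207 in exons of the reference transcript.

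Hnrnpk encodes a protein that binds C-rich RNA through KH domains and acts in transcription, splicing and translation. The gene (chr13:58391142-58403343, minus strand) had 5 and 12 enriched peaks with glucagon in the upper band and 2 and 8 in the lower band, against 8 and 8 in control upper band and 6 and 8 in control lower band. By raw count the controls were close together and the glucagon libraries lay on both sides of them. Per 1000 enriched peaks of the library, no glucagon value was below the controls, which had 1.23 to 1.62. The glucagon values were 1.52 and 1.58 in the upper band and 2.04 and 2.84 in the lower band. All 21 listed peaks fell 377 to 1469 nt from the start of the reference transcript, in a stretch of 1142 nt where 51 of 62 clusters were enriched. The leading listed peak, chr13:58401336-58401364 in the glucagon upper band list, had log2 folds of 5.44 and 3.58 with glucagon in the upper band and 3.35 in replicate 2 of the lower band, against 4.30 and 3.52 in control upper band and 3.63 and 4.27 in control lower band. It was thus enriched in the 7 libraries with a cluster there. In the 3′ UTR of Hnrnpk 0 of 26 clusters were enriched, and in its coding sequence 0 of 16.

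Ptbp1 encodes the polypyrimidine tract binding protein, a repressor of exon inclusion that binds runs of U and C. The gene (chr10:79854427-79864771, plus strand) had 1 and 5 enriched peaks with glucagon in the upper band and 0 and 2 in the lower band, against 2 and 4 in control upper band and 4 and 7 in control lower band. The groups overlapped, the 2 highest values being control lower band replicate 2 and glucagon upper band replicate 2. All 25 enriched peaks of Ptbp1 lay in its second intron, where 27.8% of 90 clusters were enriched, and none of the 14 clusters in its first intron or the 21 in its later introns was. The 7 listed peaks lay 2422 to 3736 nt from the start of the reference transcript. Only 20.6% of their bases were covered in 2 or more lists, and the leading one, chr10:79856975-79857068 in the control lower band list, was enriched in 1 glucagon library, upper band replicate 2, with a log2 fold of 3.00, against 3.28 and 3.90 in control lower band. Control upper band replicate 2 had 1.80 there, and the other 4 libraries had no cluster. One listed peak of the glucagon upper band, chr10:79857647-79857688, lies in an exon of a noncoding Ptbp1 transcript inside that intron, so GENCODE M21 gives its sequence (mm10, plus strand, T for U). It is shown, with GGG in capitals, because its sequence was at hand. The other 6 listed peaks of Ptbp1 are intronic by the annotation of any transcript, so it may not represent them.
Ptbp1 peak: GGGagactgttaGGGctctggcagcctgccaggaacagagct
It held GGG 2 times and TAGG 1 time, with the TAGG overlapping a GGG, and the other words were not found in it. No share over other sequences was formed for these words. Its log2 fold in the list was 3.09, the lowest of the 7 listed peaks of Ptbp1. Of those 7 peaks, 2 were enriched in both libraries of their group, and this peak was not among them.

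Hnrnpc encodes a protein that binds runs of U and packages nascent RNA. It had 244 clusters (chr14:52073377-52104028, minus strand) and 5 enriched peaks, in 4 libraries. There were 0 and 0 with glucagon in the upper band and 1 and 1 in the lower band, against 0 and 2 in control upper band and 1 and 0 in control lower band. Its 1 listed peak, chr14:52103436-52103523 in the control upper band list, lay 520 nt from the start of the reference transcript. There the log2 folds were 2.03 and 1.94 with glucagon in the upper band and 3.37 in replicate 2 of the lower band, against 2.47 and 3.53 in control upper band and 3.28 and 1.78 in control lower band. The site was enriched in 3 libraries, which came from both treatments, and glucagon lower band replicate 1 had no cluster there. Hnrnpdl encodes a relative of hnRNP D, a binder of AU-rich RNA. It had 3 enriched peaks (chr5:100033577-100039664, minus strand), all at 1 place, chr5:100038204-100038295. There the log2 folds were 1.96 and 2.54 with glucagon in the upper band and 1.79 and 3.21 in the lower band, against 3.37 and 2.92 in control upper band and 3.21 and 2.07 in control lower band. The libraries above 3 came from both treatments and both bands.

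Hnrnpu encodes scaffold attachment factor A, which binds RNA and chromatin. The gene (chr1:178321108-178337797, minus strand) had 3 and 4 enriched peaks with glucagon in the upper band and 0 and 4 in the lower band, against 4 and 3 in control upper band and 1 and 2 in control lower band. It had most clusters of the 10 genes (303), of which 255 were exonic and 0 of those enriched. In its first intron, 794 nt long, 21 of 37 clusters were enriched. The leading listed peak, chr1:178336667-178336725 in the glucagon upper band list, had log2 folds of 3.44 and 4.56 with glucagon in the upper band and 3.27 in replicate 2 of the lower band, against 3.26 and 4.10 in control upper band and 2.81 in replicate 2 of control lower band. Replicate 1 of both lower band groups had no cluster there.

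Most of the enriched peaks lay in first introns. Of the 287 enriched peaks, 260 lay in the first intron of the reference transcript, 25 in the second intron of Ptbp1 and 2 in exons. The 2 exonic peaks were in coding exon 7 of Hnrnpa2b1 in glucagon lower band replicate 2, with a log2 fold of 3.54, and in coding exon 10 of Hnrnph3 in control lower band replicate 2, with 3.37. In the first introns of the 10 genes, 43.5% of 598 clusters were enriched, with a median log2 fold of 2.84, against 5.64% and 1.72 over the first introns of all protein-coding genes. The pooled share rests on 5 of the genes: it was 71.3% in Hnrnpk, 58.2% in Hnrnpa3, 56.8% in Hnrnpu, 56.1% in Hnrnpf and 37.9% in Hnrnph3. It was 7.58% of 66 clusters in Hnrnpc, 7.50% of 40 in Hnrnpdl, 2.70% of 37 in Hnrnpa2b1 and 0% of 14 in Ptbp1, values near or below that of all genes. In their later introns 6.39% of 391 clusters were enriched, against 1.79% over all protein-coding genes. That share rests on Ptbp1 alone, which held all 25 of these peaks, and no other gene of the 10 had one there. In their exons 0.305% of 656 clusters were enriched, against 0.173%. Position within the first intron also matters for such a comparison: in the other protein-coding genes 12.5% of clusters in its first 2000 nt were enriched and 3.46% of those further in. In the first 2000 nt of the first intron, 42.1% of 368 clusters of the 10 genes were enriched, against that 12.5% of 89853 clusters. Further in, 45.7% of 230 clusters of the 10 genes were enriched, against that 3.46%. Both Hnrnpf stretches lie further in and held 80 and 24 of the 105 enriched peaks there, so the 45.7% rests almost wholly on Hnrnpf. These are counts over clusters that share genes and libraries, and the differences were not tested.

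The order of first introns above exons held in every library. The median log2 fold of first-intron clusters was 2.46 and 2.65 with glucagon in the upper band and 3.47 and 2.84 in the lower band, against 2.79 and 2.92 in control upper band and 3.09 and 2.78 in control lower band. For exonic clusters it was 0.247 and −0.006 with glucagon in the upper band and 0.816 and 0.619 in the lower band, against 0.036 and 0.172 in control upper band and 0.457 and 0.713 in control lower band. The highest exonic median was below the lowest first-intron median. The first intron also had the highest median in 8 of the 9 genes with clusters there, Ptbp1 being the exception.

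**Figure D3:**
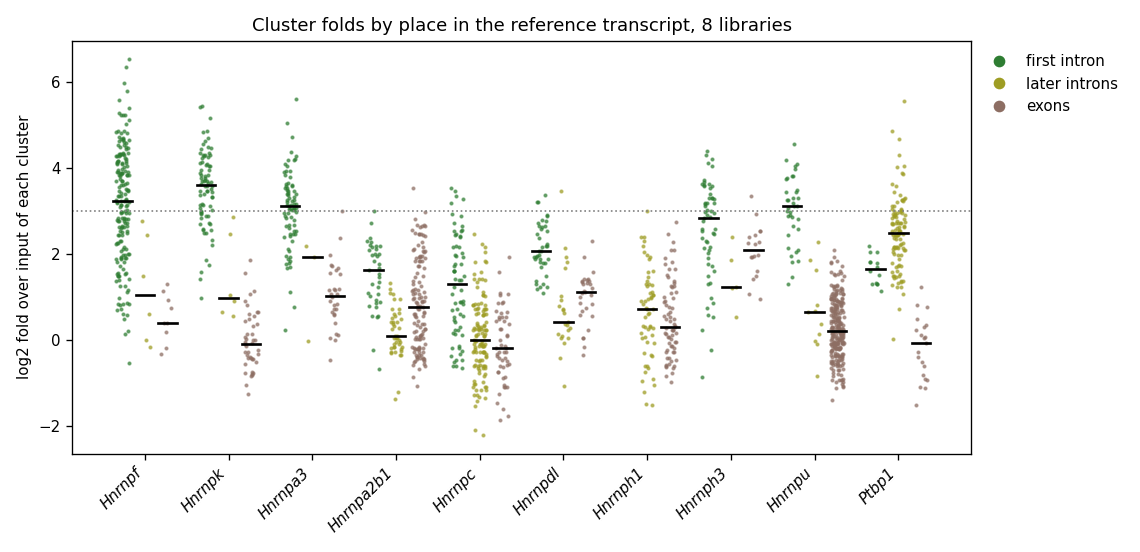
Log2 fold over input of each cluster of the 10 genes in all 8 libraries, by place in the reference transcript; points are clusters, black bars their medians and the dotted line the log2 fold of 3. First-intron clusters stood above exonic ones, with medians of 2.84 and 0.37 over the 10 genes, and in Ptbp1 the later introns held the high clusters.

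Of the 113 listed peaks, 106 (93.8%) were in a first intron and 7 in a second, where 70.6% of the 7343 listed peaks of other protein-coding genes were in a first intron. Within 2000 nt of the start of the reference transcript lay 50.4% of the listed peaks of the 10 genes, against 50.6% for the other genes. Hnrnpf lowers the first value: without it the share was 89.1%. Measured from the nearest annotated start upstream, 90.3% lay within 2000 nt, against 59.2% for the other genes. By the annotation of any transcript, 80.7% ± 5.25 of the enriched peaks of the 10 genes were intronic, against 83.7% ± 3.85 of all enriched peaks (SD, n = 8 libraries). The shares count as exonic the peaks that fall in an exon of any transcript: in the 10 genes 45 enriched peaks lay in a 5′ UTR of another transcript, 20 of them in Hnrnpf and 25 in Hnrnpk. With introns ranked before exons the share in the 10 genes was 99.7%. The share of all enriched peaks under that order is not given here, so 99.7% cannot be set against the 83.7%.

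**Figure D4:**
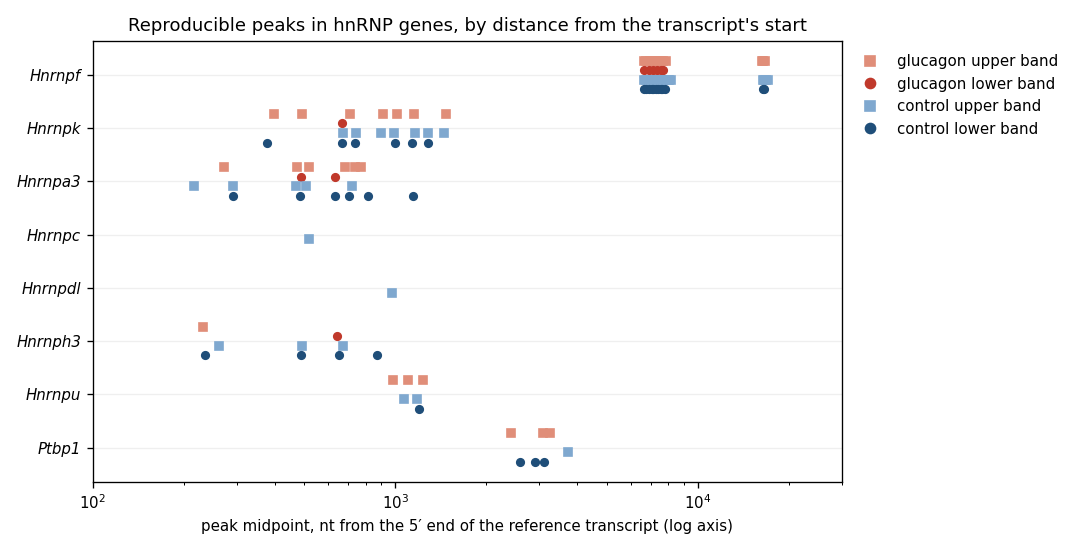
Distance of each listed peak from the 5′ end of the reference transcript (log axis, nt) for the 8 genes with a listed peak, 1 row per gene and 1 colour per list, glucagon lists above control lists. In 6 of the 8 genes every peak was within 1469 nt of the start, and the peaks of Ptbp1 and Hnrnpf lay further in.

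The study compared glucagon with control. None of the 6 hnRNP genes with enough peaks for a test passed it. The test was limma on the log2 of enriched peaks per 1000 enriched peaks of the library, with band as a term, over the 852 genes with at least 8 enriched peaks. Of these genes 4.34% were called higher and 3.76% lower with glucagon, and 0 of the 6 hnRNP genes were called. At an unadjusted p under 0.05 there were 166 genes and again 0 of the 6, whose lowest unadjusted p was 0.177. The log2 fold change was 0.50 for Hnrnpk (95% interval −0.24 to 1.24, adjusted p = 0.480), 0.68 for Hnrnpu (−0.39 to 1.75, adjusted p = 0.518) and −0.44 for Ptbp1 (−1.42 to 0.55, adjusted p = 0.660). It was 0.34 for Hnrnpa3 (−0.51 to 1.19), 0.13 for Hnrnpf (−0.59 to 0.84) and 0.14 for Hnrnph3 (−0.85 to 1.13). The intervals reach past a log2 value of 1 in Hnrnpk, Hnrnpa3, Hnrnph3 and Hnrnpu and below −1 in Ptbp1, so the data do not exclude changes of that size. The median over the 6 genes was 0.24, against 0.0064 over all 852. The tested value counts enriched peaks and is not an amount of RNA, and RNA amounts were not analysed here. Nor can fewer cells of a type and less RNA per cell be told apart in bulk cultures.

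Single libraries moved several of these values. Hnrnpf had 2.74 and 2.10 peaks per 1000 with glucagon in the upper band and 6.13 and 3.20 in the lower band, against 3.85 and 2.91 in control upper band and 3.41 and 2.28 in control lower band. The highest value was that of glucagon lower band replicate 1, which had 979 enriched peaks in all, and without that library the log2 fold change was −0.19 in Hnrnpf and −0.057 in Hnrnpa3. Without control lower band replicate 2 it was −0.11 in Hnrnpf and −0.069 in Hnrnph3, and without control upper band replicate 1 it was −0.098 in Hnrnph3. Without glucagon lower band replicate 2 it was 0.25 in Hnrnpu, without glucagon lower band replicate 1 it was −0.20 in Ptbp1, and neither gene changed direction with any library left out. Hnrnpk had 1.52 and 1.58 peaks per 1000 with glucagon in the upper band and 2.04 and 2.84 in the lower band, against 1.62 and 1.23 in control upper band and 1.46 and 1.40 in control lower band. The glucagon lower band values of Hnrnpk were above all 4 controls, and the upper band values were within their range. Hnrnpa2b1, Hnrnpc, Hnrnpdl and Hnrnph1 had too few peaks for the test.

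**Figure D5:**
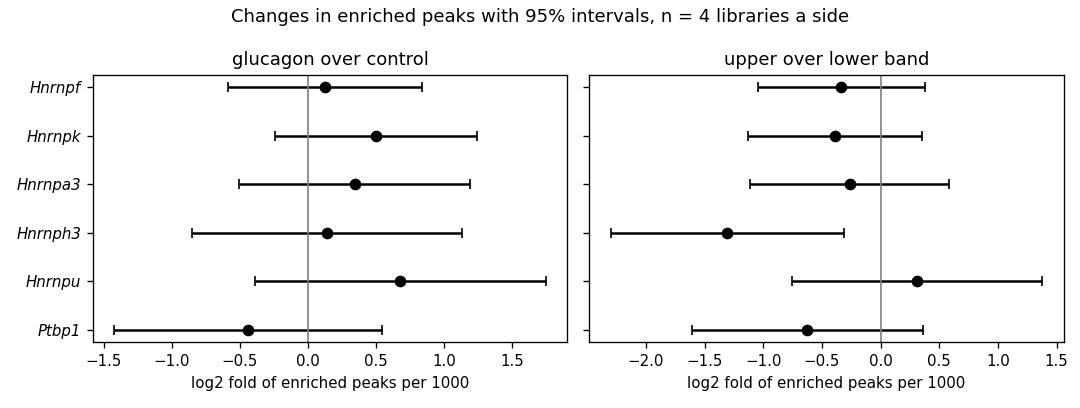
Log2 fold change in enriched peaks per 1000 for the 6 tested hnRNP genes, glucagon over control on the left and upper over lower band on the right; points are limma estimates and bars 95% intervals. All intervals cross 0 on the left, and that of Hnrnph3 lies below 0 on the right, with an adjusted p of 0.282.

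The bands were compared in the same fit. Of the 852 genes, 0.235% were called higher and 0% lower in the upper band, 101 genes had an unadjusted p under 0.05, and 0 of the 6 hnRNP genes were called. The largest difference among them was in Hnrnph3, with fewer peaks per 1000 in the upper band (0.30 and 0.39 with glucagon, 0.20 and 0.77 in control) than in the lower band (1.02 and 1.07 with glucagon, 1.22 and 0.70 in control). Its log2 fold change was −1.31 (95% interval −2.30 to −0.31, unadjusted p = 0.0120), which did not pass adjustment over all genes in limma (adjusted p = 0.282). A single pair overlapped, control upper band replicate 2 being above control lower band replicate 2. The other 5 genes had log2 fold changes between −0.63 (Ptbp1) and 0.31 (Hnrnpu), with adjusted p of 0.628 or more. The difference of the glucagon effect between bands passed in 0 of the 6 genes, with a lowest adjusted p of 0.650 in Hnrnpf, and in 1 of the 852 genes.

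Most listed peaks in these genes were enriched in at least 1 library of the other treatment in the same band. Of the 33 peaks listed with glucagon in the upper band, 30 overlapped an enriched peak in at least 1 control library of the same band, and of the 10 listed with glucagon in the lower band all 10 did. In the other direction, 38 listed in control upper band included 32 that were enriched in at least 1 glucagon library, and 32 listed in control lower band included 24. Over all listed peaks the shares were 71.0% (upper band) and 85.7% (lower band) from glucagon to control, and 63.0% (upper band) and 40.4% (lower band) from control to glucagon. Enrichment in both libraries of the other treatment was less common. From glucagon to control it held for 23 of the 33 (upper band) and 9 of the 10 (lower band). From control to glucagon it held for 21 of the 38 (upper band) and 11 of the 32 (lower band). Over all listed peaks it held, in the same order, for 890 of 2167, 275 of 413, 968 of 3692 and 273 of 2206. Of the 3 Ptbp1 peaks listed with glucagon in the upper band 1 was enriched in a control library of that band. Of its 3 peaks listed in control lower band 1 was enriched in a glucagon library of that band, and its 1 peak listed in control upper band was enriched in none. The listed peaks of Hnrnpc and Hnrnpdl, both of the control upper band, were not enriched in glucagon upper band libraries, but both sites were enriched in glucagon lower band replicate 2, with log2 folds of 3.37 and 3.21. Single sites were not tested.

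Most other hnRNP family genes had few peaks, but not all. Among 23 other family genes, 73 of 3179 clusters (2.30%) were enriched. The pooled share hides differences between genes. In Ptbp3, a relative of Ptbp1, 19 of 306 clusters (6.21%) were enriched, with 1 to 5 per library. That share was near that of Hnrnpu among the 10 genes, 6.93% of 303 clusters. Ptbp3 had 5 listed peaks, all in its first intron 214 to 617 nt from the start of its reference transcript. Grsf1, which encodes a binder of G-rich RNA, had 1. Syncrip, which encodes hnRNP Q, had 8 enriched peaks in 185 clusters and none listed. The 10 genes were chosen with earlier results of these data in view, so this contrast is a description.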

How the data were processed

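PGC-1α seCLIP was measured in 8 immunoprecipitated libraries, in 4 groups of 2. Per the submitters' processing notes the authors used cutadapt, STAR and the mm10 build (no versions are named). Neither the peak caller nor the criterion for a reproducible peak is given in the sources used here. The deposited files have no header: from its values the first number of each region was read as a −log10 p-value, capped at 400, and the second as a log2 fold over input, both the authors'. The listed fold is the authors' own, used only to describe and rank peaks within a list. Inputs have no file here. Read depth is unknown, so no counting intervals were formed, and precision is judged from the number of clusters (26279 to 260814).

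Enriched peaks needed a log2 fold of at least 3 and a −log10 p of at least 3. Introns and exons were numbered in 1 reference transcript per gene, the best by APPRIS rank, and region classes used all GENCODE M21 transcripts, with coding exons first, then untranslated and noncoding exons, then introns. Listed peaks under 2000 nt apart form a stretch. Per-gene counts were tested in limma 3.58.1 (R 4.3.3) on log2 of peaks per 1000 with a pseudocount of 0.5 peaks, treatment and band as terms and Benjamini-Hochberg adjustment over 852 genes, at an adjusted p of 0.05. The step was tested on simulated data. Other steps used Python 3.11.15, numpy 2.4.6, pandas 2.3.3 and matplotlib 3.10.9. Of the 10 genes, all had a RefSeq promoter entry, and words were searched only in sequences at hand, since a genome sequence was not used here.

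Named were the 10 genes; of 23 other family genes, those with a listed peak and the 3 with most enriched peaks; and per gene the listed peak of highest fold. A family gene that the rule takes is not reported here. The exonic peaks, and the Ptbp1 peak whose sequence is shown, were chosen after their values were seen. The members and lists were chosen with earlier results of these data known. Alternatives covered the thresholds, pseudocount, scaling, gene filter, region order, overlap rule, each library left out and a replicate block.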

Additional observations from a re-analysis of the deposited data

How the results depend on the processing

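No hnRNP gene passed the test under any alternative: over 198 refits of the 6 genes in both contrasts the lowest adjusted p in limma was 0.331 for glucagon and 0.141 for band, and 189 kept their direction. The direction turned in 9. For glucagon these were Hnrnpf at a log2 fold of at least 4 (−0.26), without glucagon lower band replicate 1 (−0.19) and without control lower band replicate 2 (−0.11); Hnrnpa3 without glucagon lower band replicate 1 (−0.057); and Hnrnph3 without control lower band replicate 2 (−0.069) or control upper band replicate 1 (−0.098). For band they were Hnrnpa3 without glucagon lower band replicate 1 (0.14), Hnrnpu at a −log10 p of at least 5 (−0.013) and Ptbp1 at a log2 fold of at least 2 (0.097). With a library left out, the highest glucagon values of Hnrnpf, Hnrnpa3 and Hnrnph3 were 0.33, 0.55 and 0.49, and the lowest band value of Hnrnpa3 was −0.47. Of all genes, 69 were called for glucagon, 191 at a log2 fold of at least 2, 0 at 4, 30 with scaling by clusters (which moved the median of all genes by 0.109) and 33 to 88 with a library left out. For band 2 were called, and 8 at a log2 fold of at least 2, 0 at 4, 5 at a −log10 p of at least 5, 15 with a pseudocount of 1 peak, 0 with scaling by clusters, 6 with Neat1 left out of the scaling, 1 with at least 16 enriched peaks, 6 with at least 1 and 0 to 8 with a library left out. With a replicate block 67 genes were called for glucagon and 5 for band. The main fit had no block because the labels do not say that replicate numbers pair libraries. Same-numbered libraries correlated at −0.03 to 0.10 over 852 genes, but with few peaks per gene this cannot show that they were unpaired. Nor do the labels say whether the 2 bands of a replicate came from the same cells, and the fit counted them as separate libraries. The intronic share of the hnRNP peaks, 80.7%, was 88.0% at a log2 fold of at least 4, 99.7% with introns before exons and 80.0% to 82.4% with a library left out. The number of hnRNP genes with a listed peak, 8, was also 8 by any overlap and without the glucagon lower band list, an alternative chosen after seeing the data, and 6 when peaks had to be enriched in both libraries. The cause of these shifts was not tested. With 2 libraries a group and unknown read depth, small changes were out of reach, and larger ones could be missed. Counts were simulated from the observed means and library totals, with an assumed spread. In them the glucagon test recovered 41.1% of 180 genes changed 4-fold in either direction and 73.1% of 175 genes changed 8-fold.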
